A study of Saccharomyces cerevisiae with 5 samples.

Results

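The transcripts of the cytosolic small-subunit ribosomal proteins of budding yeast (Saccharomyces cerevisiae) are described here on 5 spotted arrays with 2 channels. Each array hybridised a zzYra1 immunoprecipitate, pulled down through a zz tag on Yra1, together with a control immunoprecipitate of the tag by itself, and asked which transcripts co-purify with Yra1. The 5 arrays formed 1 group. Channel 2 held the zzYra1 sample of arrays 1, 2 and 5, and channel 1 that of arrays 3 and 4. The labels give arrays 4 and 5 the same numeric code, which may be a date, though its meaning is not stated. The sources used here do not give the strain, growth or other alleles, nor whether arrays came from separate cultures. The p-values below therefore cover the spread among the 5 arrays alone, and that spread may be technical. The members were all spots whose gene symbol in the platform annotation was RPS, a number and an optional A or B. They made up 55 of 5583 genes, with 66 spots on the table of arrays 1 to 3 and 108 spots, for 54 genes, on the table of arrays 4 and 5. RPS14A was on the table of arrays 1 to 3 alone.

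The small (40S) ribosomal subunit binds the mRNA, lets the start codon be found and checks each codon against its tRNA. Most yeast ribosomal proteins are encoded by a pair of genes, A and B, left by the whole-genome duplication, and the members of a pair encode nearly identical proteins, so that cDNA of one copy can bind the spot of the other. Ribosomal protein genes are among the most highly transcribed in growing yeast, and they hold many of the introns of this genome. Yra1 is an RNA-binding adaptor that hands mRNA to the export receptor Mex67. Of the 55 genes, 48 formed 24 pairs and 7 had 1 copy. By the position of the protein, 21 belonged to the head of the subunit, 12 to the platform side and 22 to the body. By a list written by hand, 36 had an intron in the coding sequence, 15 had none and 4 were not sorted.

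The values are log2 ratios of the channels, as the difference from the median gene of the same array, and are written without a unit below. The sources used here do not give which immunoprecipitate was the numerator. A positive value therefore says that a transcript lay above the median gene in the deposited sign, and not that it was richer in the zzYra1 immunoprecipitate. Where arrays are combined, results are given both with the signs of arrays 3 and 4 turned, which fits a ratio that always had the same channel on top, and with the deposited signs, which fits values already turned by the depositors. Over genes, the standard deviation of the log2 ratios was 2.51 on array 4 and between 0.91 and 1.14 on the others. YRA1 itself had a value on array 3 alone (0.63).

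Small-subunit transcripts were recorded far more often than the average gene on arrays 4 and 5, more often on array 2, and about as often on array 1. On array 4, 37 of 54 small-subunit genes had a value (68.5%), against 23.9% of all genes. The share on array 5 was 34 of 54 (63.0%), against 19.8% of all genes. Array 2 held values for 41 of 55 (74.6%), against 51.1% of all genes, and array 1 for 26 of 55 (47.3%), against 44.4%. Array 3, on which 97.6% of all genes had a value, had one for each of the 55. No test is attached to these shares, which are counts over genes and not over arrays.

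Large-subunit genes were also recorded more often than the average gene on arrays 2, 4 and 5, and mitochondrial small-subunit genes were not. The shares for large-subunit genes (RPL) were 33.3%, 84.0%, 97.3%, 64.4% and 71.2% on arrays 1 to 5. The 5 genes of the stalk, the flexible arm of the large subunit that recruits translation factors, all had a value on arrays 2 to 5, and 3 of them on array 1. Of 27 genes for the small subunit of the mitochondrial ribosome, 6 were recorded on array 4 and 0 on array 5, and 11 of 28 on array 2. Of 16 factors that assemble the 40S subunit, 5 had a value on array 4 and 3 on array 5, and of 6 regulators of ribosomal protein gene transcription 3 and 4 had one. The sources used here do not say why spots lack a value. No intensities were used, and the part that brightness plays in these shares was not tested.

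**Figure D1:**
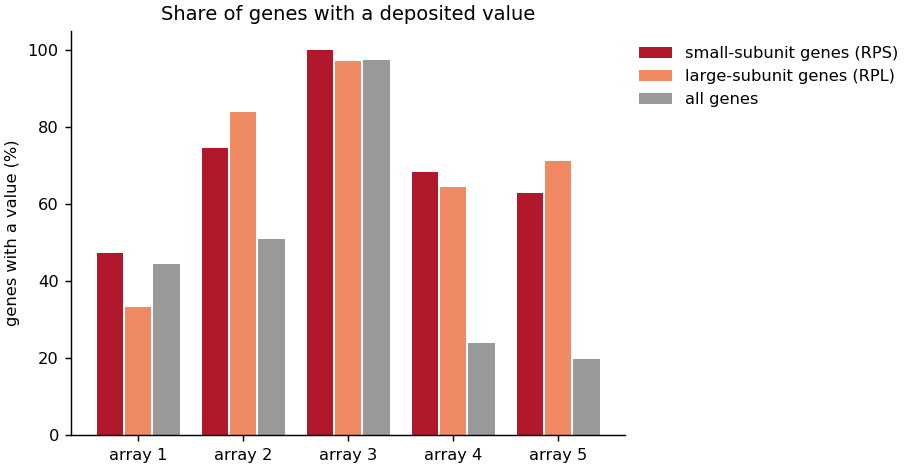
Share of genes with a deposited value (percent, vertical axis) on arrays 1 to 5, for small-subunit genes, large-subunit genes and all genes. On arrays 4 and 5 the small-subunit bars stand at 68.5% and 63.0%, against 23.9% and 19.8% of all genes.

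Within the family, 8 genes had a value on all 5 arrays, 22 on 4, 15 on 3 and 10 on 2. The 8 were RPS1B, RPS10B, RPS12, RPS17A, RPS21A, RPS21B, RPS24B and RPS31. The 10 recorded on 2 arrays were RPS0A, RPS1A, RPS7A, RPS9A, RPS11A, RPS14A, RPS19A, RPS19B, RPS20 and RPS25A, of which RPS14A could have had at most 3. On array 5, 21 of 35 genes with an intron and 12 of 15 without one were recorded. These counts were 25 of 36 and 13 of 15 on array 2, 25 of 35 and 10 of 15 on array 4, and 19 of 36 and 6 of 15 on array 1. The order of the intron classes thus differed between arrays. Of 21 head genes, 16 were recorded on array 4 and 16 on array 5, and of 22 body genes 15 and 12.

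**Figure D2:**
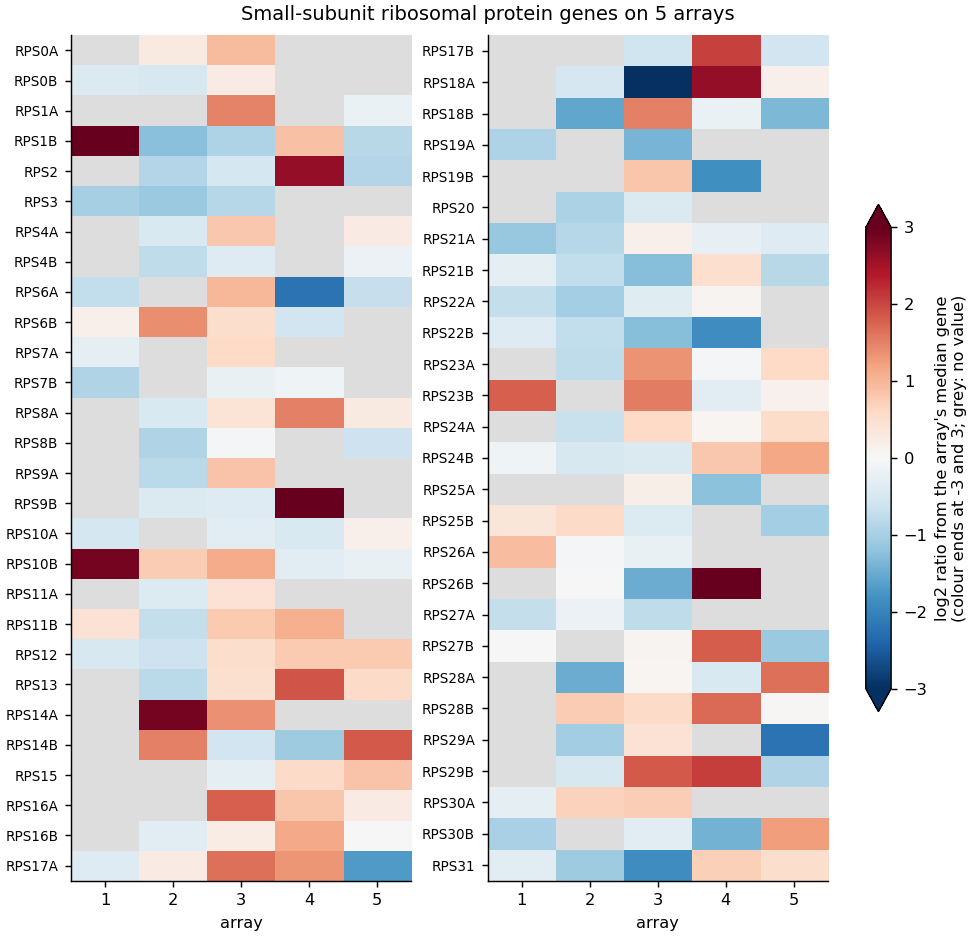
Centred log2 ratio (colour, from -3 to 3) of each of the 55 small-subunit genes (rows) on arrays 1 to 5 (columns), with grey for no value. Array 3 has no grey cell, 10 rows have colour on 2 arrays only, and few rows keep a colour across arrays.

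The ratios of the small-subunit genes as a group lay on different sides of the median gene on different arrays. Their medians on arrays 1 to 5 were -0.35, -0.51, 0.17, 0.57 and 0.02, where the median of all genes is 0 by construction. On array 2, 31 of 41 lay below 0, and on array 1, 18 of 26. On array 4, 22 of 37 lay above 0. Medians of the large-subunit genes were 0.32, -0.57, -0.02, 0.63 and 0.35, so that both subunits lay on the same side on arrays 2 and 4. On array 5 the small-subunit genes were split evenly, 17 of 34 above 0, and their median was -0.05 when the array was centred on its median spot in place of its median gene. The small-subunit median lay inside the middle 50% of all genes on arrays 1, 3, 4 and 5, and just below it on array 2 (-0.49 to 0.56). Each median describes a single array.

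Members over 2-fold from the median gene were in places more and in places less common than among all genes. On array 1, 3 of 26 lay over 1 log2 unit (2-fold) above the median gene, against 14.6% of all genes, and 1 lay as far below it, against 4.2%. On array 2 the counts were 3 of 41 above, against 12.8%, and 7 below, which is 17.1% against 8.13%. Array 3 had 10 of 55 above, against 12.4%, and 6 below, against 13.4%. Array 4 had 13 of 37 above, against 32.7%, and 6 below, which is 16.2% against 35.1%. On array 5 there were 4 of 34 above, against 20.8%, and 5 below, against 15.4%. The shortage of low members on array 4 was the widest departure from the share of all genes. It was not particular to the small subunit, as 7 of 47 large-subunit genes (14.9%) lay as low on array 4. On array 2, 12 of 63 large-subunit genes (19.05%) lay over 1 log2 unit below the median gene. These shares describe single arrays and carry no test.

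**Figure D3:**
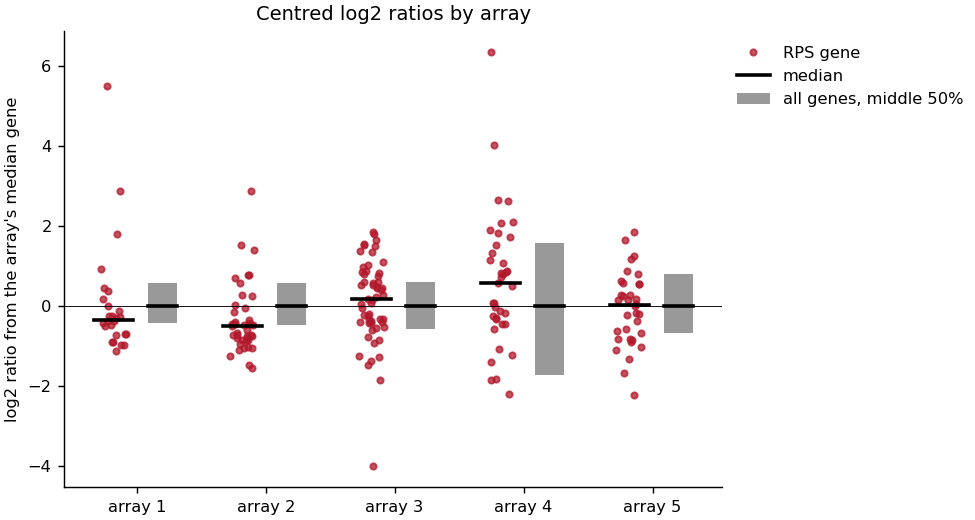
Centred log2 ratios (vertical axis) on arrays 1 to 5, with 1 red point per small-subunit gene and its median as a black line, beside a grey bar for the middle 50% of all genes. The red medians run from -0.51 on array 2 to 0.57 on array 4, and single points reach 5.50 on array 1, 6.34 on array 4 and -4.01 on array 3.

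The single-copy genes have no A or B partner in the family. RPS2, at the entry of the mRNA channel, had -0.87, -0.54, 2.63 and -0.87 on arrays 2 to 5. RPS3, which lines the same entry, had -0.99, -1.10 and -0.85 on arrays 1 to 3 and no value on the others. RPS31, made as a fusion of ubiquitin to the ribosomal protein, had -0.32, -1.07, -1.86, 0.72 and 0.53 on arrays 1 to 5. RPS31 was thus low on the first table and high on the second, though only 1 of its 2 spots had a value on arrays 1 and 3. Its spots on array 2 stood at -1.97 and -0.17. RPS12, in the beak of the head, had -0.48, -0.62, 0.52, 0.79 and 0.79. RPS13, in the body, had -0.81, 0.48, 1.88 and 0.58 on arrays 2 to 5. RPS15, of the head, had -0.27, 0.57 and 0.86 on arrays 3 to 5, and RPS20, also of the head, -0.95 and -0.43 on arrays 2 and 3. On array 2 all 6 single-copy genes with a value were below 0, and on array 4 all 5 were above it.

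Among head genes with a copy, RPS18A and RPS18B, for the protein that contacts the large subunit across a bridge, gave the widest disagreement of the family. RPS18A had -0.51, -4.01, 2.64 and 0.16 on arrays 2 to 5, and RPS18B -1.56, 1.504, -0.19 and -1.34. On array 3, where 0.07% of all genes lay lower than RPS18A, the copies differed by 5.52. Each copy had 1 spot there, and 2 spots of a single gene differed by up to 5.30 on that array. RPS10B, for a protein at the outer edge of the head, had 2.88, 0.75, 1.10, -0.32 and -0.22 on arrays 1 to 5. Its value on array 1 was the mean of a spot at -0.20 and a spot at 5.96. RPS10A had -0.52, -0.33, -0.46 and 0.15 on arrays 1, 3, 4 and 5. RPS17A, of the head, had -0.39, 0.25, 1.65, 1.31 and -1.69, and was high on both arrays with zzYra1 in channel 1, though its spots on array 3 stood at 0.56 and 2.73. RPS17B had -0.60, 2.06 and -0.58 on arrays 3 to 5. RPS16A, for the protein whose tail reaches the peptidyl site, had 1.78, 0.83 and 0.25 on arrays 3 to 5, and RPS16B -0.35, 0.21, 1.13 and -0.00 on arrays 2 to 5.

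RPS28A and RPS28B encode a protein at the exit of the mRNA channel, and the protein is known to speed the decay of the RPS28B mRNA. RPS28A had -1.49, 0.05, -0.45 and 1.64 on arrays 2 to 5. RPS28B had 0.76, 0.57, 1.71 and 0.04, all above 0. RPS29A, for a zinc-binding protein of the head, had -1.05, 0.44 and -2.22 on arrays 2, 3 and 5, and RPS29B -0.49, 1.84, 2.08 and -0.91 on arrays 2 to 5. RPS29B was above 0 on both arrays with zzYra1 in channel 1 and below 0 on both with it in channel 2. RPS25A had 0.17 and -1.23 on arrays 3 and 4, and RPS25B 0.36, 0.57, -0.40 and -1.03 on arrays 1, 2, 3 and 5. RPS19A and RPS19B, for a protein needed to mature the 18S rRNA, shared only array 3, at -1.39 and 0.84. RPS19A also had -0.92 on array 1 and RPS19B -1.83 on array 4.

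On the platform side, RPS1B, for a protein near the mRNA exit, held the highest value of the family on array 1 (5.50), where 0.97% of all genes lay higher. That value came from 1 spot. On the other arrays RPS1B had -1.25, -0.94, 0.87 and -0.82. RPS1A had 1.49 on array 3 and -0.20 on array 5. RPS14A and RPS14B encode the protein that also binds the RPS14B pre-mRNA and lowers its expression. RPS14A had 2.86 and 1.38 on arrays 2 and 3, and RPS14B 1.52, -0.57, -1.08 and 1.85 on arrays 2 to 5. Both copies stood at the top of the family on array 2. RPS26B, for a protein that contacts mRNA upstream of the start codon, had 0.02 and -1.48 on arrays 2 and 3 and 6.34 on array 4, the highest small-subunit value anywhere. Of its spots on array 4, only 1 of 2 had a value. RPS26A had 0.92, -0.05 and -0.21 on arrays 1 to 3, and its spots on array 1 stood at -0.27 and 2.10.

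The remaining platform-side genes lay between -1.29 and 1.81. RPS0A had 0.26 and 0.96 on arrays 2 and 3, and RPS0B -0.42, -0.47 and 0.25 on arrays 1 to 3. RPS21A had -1.13, -0.86, 0.15, -0.25 and -0.38 on arrays 1 to 5, and RPS21B -0.29, -0.74, -1.29, 0.50 and -0.83. They formed the only pair with both copies on every array. RPS27A had -0.72, -0.17 and -0.77 on arrays 1 to 3, and RPS27B 0.00, 0.08, 1.81 and -1.10 on arrays 1, 3, 4 and 5.

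In the body, RPS9B, for a protein whose mutants misread codons, had -0.44 and -0.38 on arrays 2 and 3 and 4.01 on array 4. RPS9A had -0.81 and 0.86 on arrays 2 and 3. RPS6A, for the protein phosphorylated downstream of the TOR kinase, had -0.73, 1.01, -2.22 and -0.68 on arrays 1, 3, 4 and 5, and RPS6B 0.16, 1.38, 0.53 and -0.58 on arrays 1 to 4. RPS23B, for a protein of the decoding centre, had 1.80, 1.54, -0.33 and 0.14 on arrays 1, 3, 4 and 5, and RPS23A -0.76, 1.35, -0.04 and 0.61 on arrays 2 to 5. RPS22B had -0.38, -0.75, -1.27 and -1.86 on arrays 1 to 4, and RPS22A -0.71, -1.03, -0.35 and 0.08. RPS22B is the copy with an intron and RPS22A has none. RPS30A had -0.27, 0.69 and 0.74 on arrays 1 to 3, and RPS30B -0.97, -0.33, -1.42 and 1.25 on arrays 1, 3, 4 and 5.

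RPS24A had -0.68, 0.60, 0.07 and 0.55 on arrays 2 to 5, and RPS24B -0.14, -0.49, -0.44, 0.81 and 1.17 on arrays 1 to 5. RPS8A had -0.46, 0.40, 1.51 and 0.27 on arrays 2 to 5, and RPS8B -0.89, -0.07 and -0.62 on arrays 2, 3 and 5. RPS11B had 0.44, -0.72, 0.78 and 1.08 on arrays 1 to 4, and RPS11A -0.41 and 0.44 on arrays 2 and 3. The 4 genes RPS4A, RPS4B, RPS7A and RPS7B lay between -0.90 and 0.81 wherever they had a value. ASC1, the scaffold protein of the 40S head that carries no RPS name, had -1.34, 0.12, 2.71 and 0.07 on arrays 2 to 5.

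Members with and without an intron did not keep an order across arrays. Genes with an intron had medians of -0.38, -0.47, 0.46, -0.04 and 0.14 on arrays 1 to 5, and genes without one -0.40, -0.89, -0.27, 0.83 and -0.08. On array 4, 12 of 25 genes with an intron lay above 0, against 9 of 10 without one. On array 3, 23 of 36 with an intron lay above 0, against 6 of 15. The intron classes overlapped on every array. Platform-side genes had medians of -0.29, -0.11, -0.07, 0.69 and -0.60, head genes -0.44, -0.56, 0.17, 0.75 and 0.02, and body genes -0.27, -0.72, 0.46, 0.07 and 0.26.

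The A and B copies of a small-subunit gene gave like values on some arrays and not on others. Both copies had a value in 7, 13, 24, 10 and 12 of 24 pairs on arrays 1 to 5. The median absolute difference between copies was 0.36 on array 2, against 0.63 between members that are not copies of each other. It was 0.75 against 1.44 on array 4, and 0.62 against 0.92 on array 5. On array 3 it was 1.14 against 0.94, and on array 1 it was 0.72 against 0.64, so copies were no closer than other members there. The 2 spots of a single gene themselves differed by a median of 0.86, 0.75 and 1.03 over all genes on arrays 1 to 3. Closeness on those arrays can therefore not be read as a property of the copies. Pearson's r over pairs was -0.08, 0.58, -0.30, 0.23 and 0.49 on arrays 1 to 5, and Spearman's rho -0.50, 0.12, -0.16, 0.32 and 0.74. These describe pairs that share an array, with no test, and on array 2 the value of r rests on few pairs, as it fell to 0.21 without the 2 most extreme. RPS28A and RPS28B differed by 2.24, 2.15 and 1.61 on arrays 2, 4 and 5, and were among the 3 pairs that differed most on each of these arrays. RPS18A and RPS18B were so on arrays 2 to 5.

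**Figure D4:**
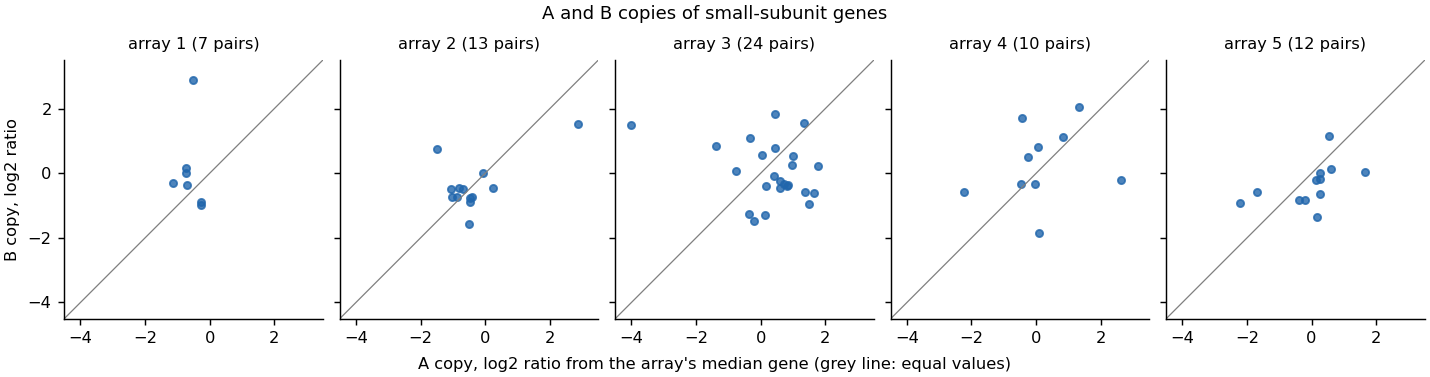
Log2 ratio of the B copy (vertical axis) against the A copy (horizontal axis) for pairs with both copies recorded, 1 panel per array and 1 point per pair, with a grey line of equal values. Points lie near the line on array 2 except for a few, and are scattered on array 3, where RPS18 lies at -4.01 and 1.504.

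Repeated spots of 1 gene agreed closely on the second table and not on the first. On the table of arrays 4 and 5 each member had 2 adjacent spots. Both had a value for 31 members on array 4 and 33 on array 5, with a median gap of 0.17 on each and r of 0.97 and 0.88. On the table of arrays 1 to 3, 11 members had 2 spots, none adjacent. Both had a value for 2, 5 and 9 of them on arrays 1, 2 and 3, with median gaps of 4.27, 1.59 and 1.07. The same held for all genes of that table, where r between the spots of a gene was 0.03, 0.11 and -0.03 over 228, 258 and 1022 genes. The 11 members were RPS0B, RPS2, RPS10B, RPS17A, RPS21A, RPS22B, RPS25A, RPS26A, RPS27A, RPS29A and RPS31. Of 1100 genes with 2 spots on that table, 1082 had them at 1 of 8 fixed distances in spot number, between 1152 and 2763, and all 11 members did. Whether both spots of such a gene held its sequence was not tested. Without these 11 members the medians on arrays 1 to 3 were -0.28, -0.51 and 0.31, and r between copies on array 3 was -0.55 over 15 pairs.

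The arrays did not share an order of small-subunit genes. Pearson's r over members lay between -0.33 and 0.22 for the 10 pairs of arrays, over 14 to 41 genes. Spearman's rho over members lay between -0.35 (arrays 4 and 5) and 0.35 (arrays 1 and 4) for these pairs. Over all genes r lay between -0.08 and 0.05 for the same pairs. The lack of a shared order was thus not particular to the small-subunit genes. The 4 pairs of the same orientation lay between -0.27 and 0.17, and the 6 of opposite orientation between -0.33 and 0.22. Arrays 4 and 5, whose labels share a numeric code, gave -0.33 over 28 members.

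No small-subunit gene passed when the 5 arrays were fitted together. The fit was made in limma over 725 genes with a value on at least 4 arrays, on whichever 4 or 5 arrays had one, and 30 of the 55 members were among them. At a Benjamini-Hochberg adjusted p under 0.05, 0 of 30 members passed with the signs of arrays 3 and 4 turned, where 0% of all genes did, and 0 of 30 with the deposited signs, where 0% did. At an unadjusted p under 0.05 there were 2 of 30 members with turned signs, 1 of each sign, against 2.62% of all genes (1.52% positive and 1.1% negative). With deposited signs there were 0 of 30, against 3.45% (2.48% positive and 0.966% negative). Leaving out array 3 raised the calls over all genes to 68 of 602 with turned signs and 80 with deposited signs, and 0 of 29 members passed there. Array 4 is then the only array with zzYra1 in channel 1, so the spread in that fit comes from arrays 1, 2 and 5, and array 4 is assumed to vary like them. Leaving out array 2 or array 4 gave 1 and 2 calls with turned signs, none of them a member, and without array 4 the lone array with zzYra1 in channel 1 is array 3. The median half-width of the 95% interval of a member was 1.20 log2 units. With turned signs 12 of 30 members were positive, with a median of -0.16, and with deposited signs 18 were, with a median of 0.19. The medians of all 725 genes were 0.06 and 0.07.

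With turned signs the 2 members under 0.05 were RPS29B and RPS14B, whose values by array are given above. RPS29B was fitted at -1.33 ± 0.50 (SE, limma adjusted p = 0.905). RPS14B was fitted at 1.25 ± 0.50 (SE, limma adjusted p = 0.905). Their unadjusted values in limma were 0.028 and 0.0361, and both had the same turned sign on 4 of 4 arrays. Leaving out array 1, 2 or 5 left 0 members under 0.05 unadjusted. Neither gene has a value on array 1, and without it both kept their fitted values while 1206 genes entered the fit. Without array 3 RPS29B was fitted at -1.39 and RPS14B at 1.38, and without array 4 at -1.27 and 1.13. Each of these fits leaves 1 array with zzYra1 in channel 1, so members under 0.05 are not counted for them. Next by p came RPS17A (-1.05 ± 0.48), RPS18B (-1.05 ± 0.54), RPS2 (-0.96 ± 0.63) and RPS27B (-0.75 ± 0.56), each with an adjusted limma p of 0.905. RPS17A had the same turned sign on 4 of 5 arrays, and the other 3 on 3 of 4. The size of these 3 hung on single arrays. RPS2 was fitted at -0.17 without array 4 and -1.75 without array 3. RPS27B was fitted at -0.31 without array 4, -0.47 without array 5 and -1.18 without array 3. RPS18B was fitted at -0.63 without array 3.

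With deposited signs RPS22B came closest, at -1.06 ± 0.51 (SE, limma adjusted p = 0.903). Its unadjusted value was 0.0666, and it lay below 0 on 4 of 4 arrays. RPS28B followed at 0.77 ± 0.52, above 0 on 4 of 4, and at 0.48 without array 4. Then came RPS10B (0.76 ± 0.56), RPS23B (0.79 ± 0.58), RPS29B (0.63 ± 0.50) and RPS21B (-0.51 ± 0.47), each with an adjusted limma p of 0.903. RPS10B and RPS23B were fitted below 0, at -0.27 and -0.09, on arrays 4 and 5 alone. RPS10B was fitted at 0.33 without array 1 and 0.41 without array 3. RPS23B was fitted at 0.32 without array 3 and 0.37 without array 1, against 1.26 without array 4 and 1.20 without array 5. RPS21B was fitted at -0.06 without array 3 and -0.96 without array 4.

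A constant sign was about as common among members as among all genes tested. With turned signs 3 of 30 members (RPS14B, RPS16B and RPS29B) had the same sign on every array with a value, against 10.6% of all genes. With deposited signs 2 of 30 did (RPS22B and RPS28B), against 9.93%.

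**Figure D5:**
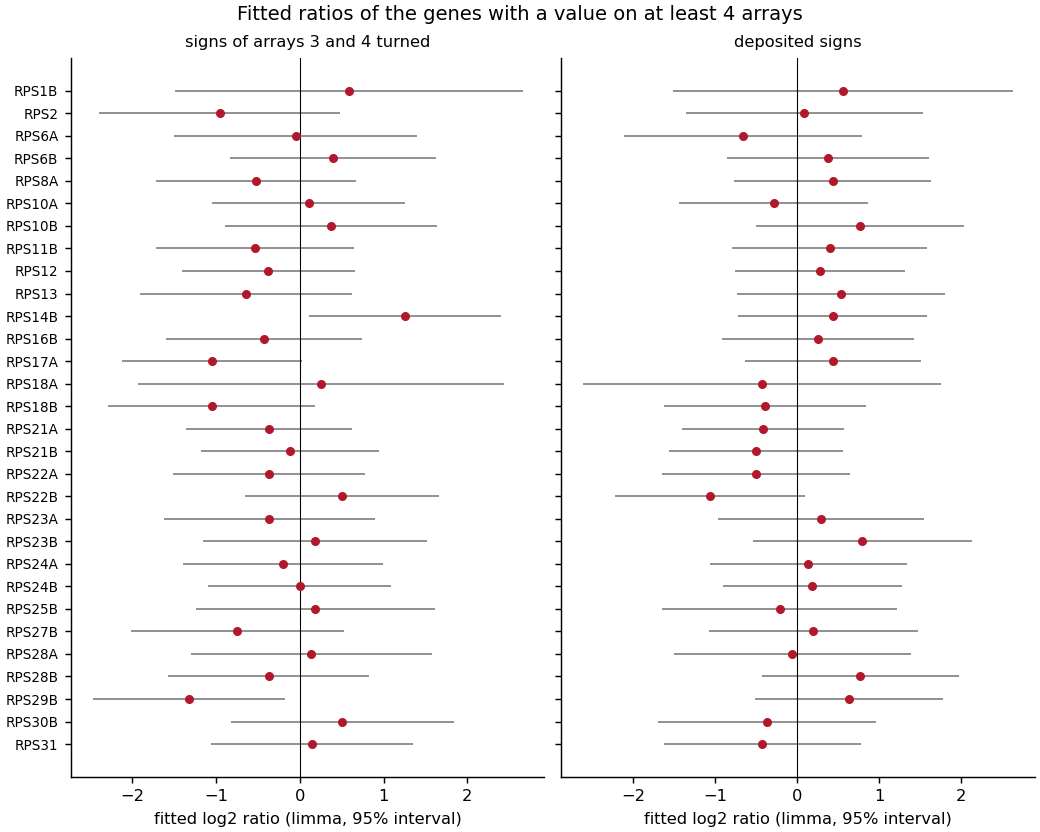
Fitted log2 ratio from limma (horizontal axis) with its 95% interval for the 30 small-subunit genes with a value on at least 4 arrays, with the signs of arrays 3 and 4 turned (left) and with deposited signs (right). The unadjusted intervals of RPS29B and RPS14B on the left lie clear of 0, and no gene passes after adjustment over 725 genes.

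The related genes gave the same outcome. Of 42 large-subunit genes tested in limma 0 passed in either reading of the signs, with 1 and 2 at an unadjusted p under 0.05. Of 5 stalk genes, 2 assembly factors and 3 regulators tested, 0 passed. The stalk genes all had a negative fitted value with turned signs (median -0.74) and all a positive one with deposited signs (median 0.86), with 1 at an unadjusted p under 0.05 in each.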

How the data were processed

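Per the labels, each array compared cDNA of 2 immunoprecipitates. The deposited values are log10 ratios of the channels, 1 column per array in 2 tables of 7680 and 12800 spots. The sources used here do not give the authors' scanner, background correction, dyes or filters. The log10 scale was settled from the values: of 400 per array, 23.3% to 94.0% became whole-number ratios (denominator up to 3000, to the rounding of the last digit) as log10, and at most 2.25% as log2 or natural logarithms. No intensities were used, so the number of arrays limits the precision.

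Multiplication by 3.32 turned them into log2 ratios. A gene's value is the mean of its spots minus the array's median gene, which removes a shift shared by most genes, and no loess or quantile step was added. Repeated rows of a spot were averaged, and 1 row lacking a spot number was dropped. The 55 symbols were the same in the R64 reference gene table. Genes with a value on at least 4 arrays were fitted in limma 3.58.1 (R 4.3.3) with orientation as an additive term, its coefficient and the intercept being the 2 readings of the signs, and p-values were adjusted over all genes by Benjamini-Hochberg. Each slide held 1 array, so slide could not be fitted as a block. The sequence of the spots was not used here.

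The members and lists were chosen with earlier results of these data known. Named were all members, then those with the smallest limma p, the highest and lowest per array, and the pairs of copies that differed most. Alternatives were leaving out each array, the minimum number of arrays, the scale, centring, spot averaging, slide position, each table alone and each orientation alone.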

Additional observations from a re-analysis of the deposited data

Results flagged for a closer look

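A single array stood far apart in 6 of 63 sets of 4 or 5 values, which were 30 members in each reading of the signs and the family's median, share with a value and agreement of copies. At 1 set in 20, 3.15 sets would do so by chance if the sets were separate and the arrays of equal spread. Neither holds, as each member entered in both readings and array 4 had the widest spread. The 6 can therefore not be read as few or many. With deposited signs RPS2 stood at 2.63 on array 4, against -0.87 to -0.54 on 3 others. With the signs of arrays 3 and 4 turned, RPS6A stood at 2.22 on array 4, against -1.01 to -0.68 on 3 others, and RPS18B at 0.19 on array 4, against -1.56 to -1.34. Turned in the same way, RPS12 stood at 0.79 on array 5, against -0.79 to -0.48, RPS25B at -1.03 on array 5, against 0.36 to 0.57, and RPS21B at 1.29 on array 3, against -0.83 to -0.29. Array 4, whose log2 ratios had a standard deviation of 2.51 over genes, gave 3 of the 6.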

How the results depend on the processing

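No small-subunit gene passed in any of the 32 fits by setting and reading. Counts over all genes ranged from 0 to 68 with turned signs and from 0 to 80 with deposited signs when an array was left out. Both highest counts came without array 3, where the lowest adjusted p of a member was 0.072, and the cause was not tested. Of the named fits, RPS10B (-0.27) and RPS23B (-0.0939) reversed on arrays 4 and 5 alone. With an array left out RPS29B with turned signs lay between -1.43 and -1.22, RPS14B between 1.13 and 1.38, and RPS22B with deposited signs between -1.21 and -0.92. With arrays scaled to equal spread RPS2 was fitted at -0.60, RPS27B at -0.46 and RPS29B with deposited signs at 0.36. On arrays 1 to 3 alone RPS17A was fitted at -0.60, RPS21B at -0.77 and RPS10B at 1.58, and on arrays 4 and 5 alone RPS18B at -0.57, RPS2 at -1.75, RPS27B at -1.46 and RPS21B at -0.16. On the arrays with zzYra1 in channel 1 RPS14B was at 0.82 and RPS18B at -0.66, and on those with it in channel 2 RPS17A was at -0.61. The median of at most 2 spots, robust eBayes and the minimum number of arrays cannot move a fitted value. On the log2 scale the family's medians ranged over alternatives from -0.37 to -0.28 on array 1, -0.68 to -0.51 on array 2, 0.13 to 0.31 on array 3 and -0.05 to 0.34 on array 5. With members that have 2 spots on both tables, a setting added after seeing the data, the share on array 1 was 72.7% (8 of 11). Of all 1100 genes with 2 spots on the table of arrays 1 to 3, 228 had both recorded on array 1 and 551 had 1. Members with 2 spots were thus recorded there about as often as all genes with 2 spots. Set against neighbouring spots, the median on array 4 was 1.38, over 18 of 37 genes. Agreement of copies on array 1 was -0.93 without the 2 most extreme of 7 pairs, -0.50 by ranks and -0.998 over the 3 pairs with 1 spot each, the last also added later; on array 2 it was 0.12 by ranks. Agreement after the neighbour step gave no value on arrays 4 and 5, with 1 and 0 pairs. Past 2 spreads of the array, 1, 2, 1 and 0 members lay above on arrays 2 to 5, and 0, 1, 2, 0 and 1 below on arrays 1 to 5, a stricter limit by construction. The share of all genes past this limit is not given here, so these counts cannot be read as few or many. Each ratio already sets the 2 immunoprecipitates of an array against each other, and no pairing between arrays was fitted. The cause of these shifts was otherwise not tested.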
